A study of Homo sapiens with 15 samples.

Results

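The comparison described here is tris(2-chloroisopropyl) phosphate (TCIPP) at 25 µM against its solvent, dimethyl sulfoxide (DMSO), in HepG2 cells. HepG2 is an established human hepatocellular carcinoma line that keeps many functions of liver cells. The members are the 3 libraries labelled TCIPP at 25 µM and the 3 labelled DMSO control, 6 of the 15 libraries of the series, together with the 12567 genes of 57773 listed that passed a filter on low exon-read counts. DMSO cultures received 0.1% of the solvent, every culture was exposed for 72 h, and all cultures were of the same line, kept below the passage limit given in the labels. The other groups were TCIPP at 2.5 µM and tris(2-chloroethyl) phosphate (TCEP) at 25 and 250 µM, with 3 libraries each. They serve to place this exposure, and their libraries also entered the low-count filter and the fit that gave the p against DMSO. TCIPP and TCEP are chlorinated organophosphate flame retardants, and TCIPP has a methyl group on every chloroalkyl arm that TCEP lacks. The series set out to screen both compounds for effects on a liver cell transcriptome.

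Much of what follows concerns the amino acid response. When amino acids run short or proteins misfold in the endoplasmic reticulum, the kinases GCN2 (gene EIF2AK4) and PERK (gene EIF2AK3) phosphorylate the translation factor eIF2, overall protein synthesis slows, and translation of the transcription factor ATF4 increases. ATF4 pairs with C/EBP proteins on a short DNA element and switches on genes for tRNA charging, amino acid synthesis and amino acid uptake, together with regulators such as TRIB3 and DDIT3 that limit or end the response. Since ATF4 is controlled mainly through its translation, its own mRNA need not follow its activity.

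Exon reads numbered 7.91, 8.02 and 21.4 M (megareads) in the DMSO libraries and 8.91, 5.35 and 8.89 M in the TCIPP libraries, so that 3 reads in a library came to between 0.140 and 0.560 CPM (reads per megaread of library). The second TCIPP library was therefore the shallowest, and the third DMSO library the deepest. The intron share of gene reads was 8.90 ± 0.211% with DMSO and 8.998 ± 0.496% with TCIPP (SD, n = 3), and genes of the mitochondrial genome took 6.997 ± 0.709% and 7.03 ± 0.293% of exon reads. All 10 hepatocyte markers examined, among them ALB and APOA1, were tested, and their summed level was 46334 to 55110 CPM with DMSO and 44923 to 51383 CPM with TCIPP. Markers of stellate, endothelial and blood cells were low, while bile duct markers were not. The summed stellate and fibroblast markers lay at 20.7 to 26.01 and 18.4 to 35.5 CPM, endothelial markers at 3.09 to 3.33 and 2.26 to 3.38 CPM, and macrophage and blood markers at 27.6 to 36.9 and 24.6 to 43.2 CPM with DMSO and TCIPP. The bile duct markers summed to 1797 to 2236 CPM with DMSO and 1363 to 1594 CPM with TCIPP without overlap; most of this was SPP1, and KRT19, SOX9 and EPCAM overlapped between the groups. PDGFRA, DCN, LUM, THY1, KDR, TEK, CLEC4G and CD163 had no exon read in any of the 6 libraries.

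Against DMSO, 1 gene passed the test, the tyrosyl-tRNA synthetase gene YARS, which rose by 0.48 ± 0.0713 (log2 fold change ± SE). This was 0.00796% of the genes tested (edgeR's quasi-likelihood test, Benjamini-Hochberg adjusted p under 0.05). No other gene passed. The genes with the next lowest p were mostly enzymes and regulators of the amino acid response on the higher side. On the lower side they were the chaperone HSP90AA1 and the acyl-CoA thioesterase ACOT13. Without adjustment, 428 genes were higher (3.41%) and 371 lower (2.95%) at edgeR's p under 0.05, 799 in all. The libraries of the groups did not overlap for 600 genes on the higher side (4.77%) and 541 on the lower side (4.3%). Without any difference a share of 0.05 of genes is still expected at p under 0.05, and groups of 3 libraries separate in some. These counts are by themselves no evidence of a broad response. Shares in a list of genes are set against these percentages throughout. Levels are TMM-scaled CPM, given as mean ± SD over 3 libraries. Every p below is from this edgeR fit of all 15 libraries unless another is named. For the median gene the 95% confidence interval extended 0.26 (log2) beyond the estimate on each side. A smaller difference in such a gene did not reach unadjusted p under 0.05, and the adjusted threshold asked for a larger one.

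YARS (ENSG00000134684, chr1:33240840-33283754 on hg19) was at 121, 119.6 and 109 CPM with DMSO and at 170.1, 167 and 152 CPM with TCIPP. The lowest TCIPP library thus lay above the highest DMSO library. The log2 fold change had a 95% confidence interval of 0.33 to 0.64 and an adjusted p of 0.0411. The call depended on single libraries: the adjusted p was 0.135 without the first DMSO library, 0.256 without the third, and 0.106 and 0.108 without the first and the second TCIPP library, while the log2 fold change stayed between 0.44 and 0.53. It was also lost, with 0 genes passing, when only the 6 compared libraries were fitted. YARS shares 1387 bases with S100PBP, a gene at 21.7 CPM, so some reads could belong to either if strand was not used in counting. DESeq2 called 34 genes on the same reads (0.271%), 25 higher and 9 lower, with YARS at an adjusted p of 2.06e-06.

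**Figure D1:**
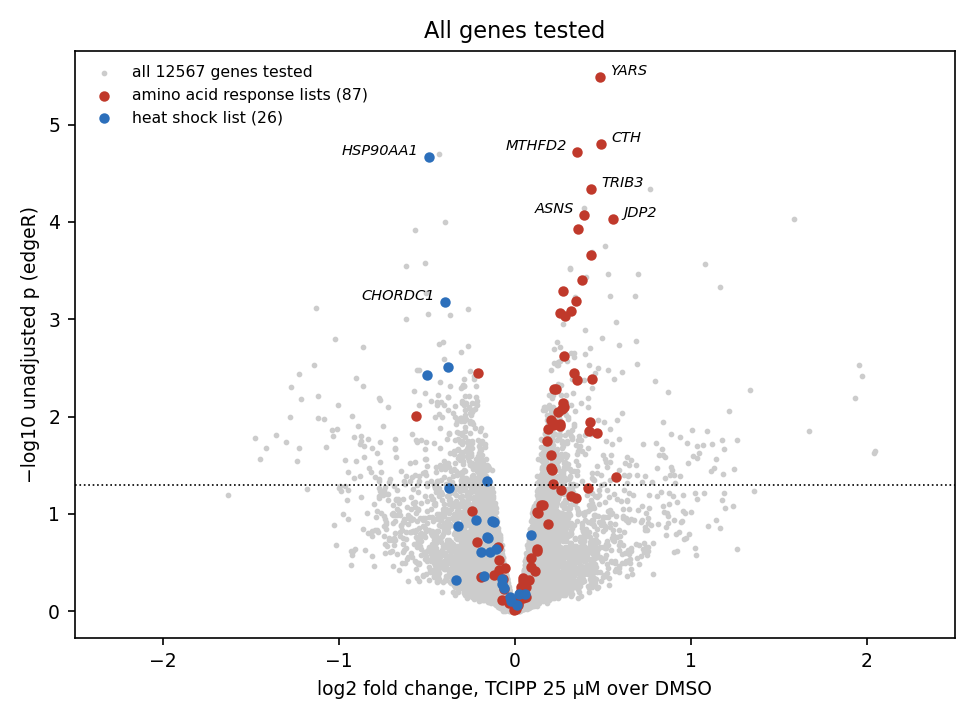
Each point is one of the 12567 genes tested, with the log2 fold change of TCIPP at 25 µM over DMSO on the horizontal axis and −log10 of edgeR's unadjusted p on the vertical axis; the dotted line marks the unadjusted threshold. The 87 genes of the amino acid response lists (red) lie mostly to the right of 0, with YARS highest, and the 26 heat shock genes (blue) mostly to the left.

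The cytosolic aminoacyl-tRNA synthetases load each amino acid onto its tRNA for protein synthesis. All 20 were tested. Of these, 16 had a higher mean with TCIPP, 8 were higher at unadjusted p under 0.05 (40% against 3.41% of all genes) and 0 lower, and their median log2 fold change was 0.11 against −0.0024 for all genes. Groups did not overlap for 6 on the higher side, YARS, WARS, GARS, IARS, CARS and MARS. The tryptophanyl synthetase gene WARS was at 73.6, 76.0 and 66.1 CPM with DMSO and 103, 101 and 86.8 CPM with TCIPP, a log2 difference of 0.43 ± 0.0924 with an adjusted p of 0.154; only 63.9% of its exon reads were unique to 1 place. The glycyl synthetase gene GARS was at 278, 254 and 253 CPM and then 323, 325 and 303 CPM (0.28 ± 0.0646, adjusted p = 0.22). The isoleucyl synthetase gene IARS was at 232, 239 and 233 CPM against 276, 301 and 265 CPM (0.26 ± 0.0637, adjusted p = 0.269). Groups were separate for these 3 genes in every library. AARS, CARS, SARS and MARS, for alanine, cysteine, serine and methionine, had log2 differences of 0.21, 0.22, 0.25 and 0.21, with the third TCIPP library of SARS, at 146 CPM, inside the DMSO range of 141 to 149 CPM. At the other end RARS, HARS and VARS had values of −0.10, −0.09 and −0.09. On the RPKM scale, which allows levels to be compared between genes, these synthetases spanned a wide range, from 57.3 ± 2.58 for GARS and 28.9 ± 0.778 for IARS to 12.9 ± 0.713 for YARS and 10.3 ± 0.764 for WARS with DMSO. Of the mitochondrial synthetases, a separate set of nuclear genes, 4 of 16 had a higher mean, none was at p under 0.05 in either direction, and their median was −0.04.

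Enzymes of amino acid and one-carbon synthesis were next, with 9 of 23 higher at unadjusted p under 0.05 (39.1%), 0 lower and a median log2 difference of 0.10. Cystathionine gamma-lyase (CTH, chr1:70876901-70905534), which makes cysteine by transsulfuration, was at 24.2, 22.5 and 21.6 CPM with DMSO and 32.1, 32.5 and 31.0 CPM with TCIPP. The difference of 0.49 ± 0.0825 just missed the threshold, with an adjusted p of 0.0538. MTHFD2, a mitochondrial folate enzyme, went from 254, 265 and 264 to 339, 321 and 343 CPM (0.36 ± 0.0607, adjusted p = 0.0538, unique share of reads 54.2%). Asparagine synthetase (ASNS, chr7:97481430-97501854) was at 91.9, 109 and 99.8 CPM with DMSO and at 136, 129.7 and 129 CPM with TCIPP (0.40 ± 0.0770, adjusted p = 0.0969). In all 3 genes every TCIPP library exceeded every DMSO library. The serine and glycine enzymes SHMT2 and PSAT1 had differences of 0.32 ± 0.0793 and 0.34 ± 0.100 without overlap, at means of 253 ± 9.65 against 317 ± 27.9 CPM and 296 ± 5.36 against 374 ± 28.9 CPM. PHGDH, which starts serine synthesis, had a smaller value of 0.16 ± 0.0854, and the proline enzymes ALDH18A1, PYCR1 and PYCRL had values of −0.12, −0.06 and −0.19. The count of 9 was 5 when the third DMSO library was left out, where 534 of all genes stood at that threshold against 799.

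Amino acid transporters gave 7 of 20 higher (35%) and 1 lower, with a median of 0.16. SLC7A1, the main importer of arginine and lysine in many cells, was at 128, 143 and 119 CPM with DMSO and 169.7, 168 and 164 CPM with TCIPP (0.36 ± 0.0725, adjusted p = 0.1). SLC3A2 and SLC7A5 form a heterodimer that exchanges large neutral amino acids, and their log2 differences were 0.28 ± 0.0779 and 0.23 ± 0.0726. Their groups stayed apart only narrowly: the highest DMSO and the lowest TCIPP library were 147 and 149 CPM for SLC3A2 and 391 and 394 CPM for SLC7A5, with the second DMSO library the high one in both. The exception was SLC38A4, a transporter of neutral amino acids in liver, at 6.01, 10.0 and 8.47 CPM with DMSO and 4.75, 4.89 and 6.87 CPM with TCIPP (−0.56 ± 0.193, adjusted p = 0.596). The cystine carrier SLC7A11 was high in a single TCIPP library, at 131, 121 and 197 CPM against 116, 121 and 124 CPM, and only 21.2% of its reads were unique. The count of 7 was 4 without the first DMSO library.

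The list of ATF4 regulators and stress targets stood highest, with 15 of 24 members higher at unadjusted p under 0.05 (62.5%), 1 lower, 13 without overlap on the higher side and a median of 0.27. TRIB3, a pseudokinase that binds ATF4 and dampens it, was at 143, 177 and 150.4 CPM with DMSO and 217, 197 and 219 CPM with TCIPP (0.43 ± 0.0795, adjusted p = 0.083). JDP2, a bZIP repressor, was at 10.1, 11.5 and 12.1 CPM and then 17.4, 14.5 and 17.8 CPM (0.56 ± 0.110, adjusted p = 0.0969). CEBPG, a C/EBP partner of ATF4, was at 68.6, 77.6 and 74.2 CPM against 81.8, 94.4 and 93.2 CPM (0.29 ± 0.0714, adjusted p = 0.269). No library overlapped between the groups in any of these. DDIT3, which encodes the stress factor CHOP, was near 13 CPM or lower in every DMSO library (13.2, 9.41 and 13.3) and near 16 CPM with TCIPP (16.6, 16.5 and 15.9), a difference of 0.43 ± 0.152 with an adjusted p of 0.598. Its reads were 59.6% unique, and it shares 982 bases with MARS, which stood at 173 CPM. SESN2, NUPR1 and DDIT4, which restrain growth under stress, had differences of 0.44 ± 0.133, 0.36 ± 0.108 and 0.38 ± 0.0872, though 23.6% of the reads of DDIT4 were unique. XPOT, the nuclear exporter of tRNA, had 0.22 ± 0.0693. ATF4 mRNA itself was at 562, 541 and 522 CPM with DMSO and 639, 629 and 537 CPM with TCIPP, overlapping between the groups, and the interval of its log2 difference, −0.02 to 0.32, included 0. ATF3 was likewise within the spread (0.11 ± 0.128). The sensor kinase gene EIF2AK4 was the 1 member on the lower side, at 103, 102 and 109 CPM against 95.3, 85.0 and 91.2 CPM (−0.21 ± 0.0610, adjusted p = 0.506), and the PERK gene EIF2AK3 was at −0.02. CHAC1, a strongly inducible target of the pathway in other settings, was too low to test, with 2, 1 and 1 reads against 2, 0 and 0.

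The 4 lists together hold 87 tested genes. Of these 69 had a higher mean with TCIPP, 39 were higher and 2 lower at unadjusted p under 0.05 (44.8% and 2.3% against 3.41% and 2.95%), 31 did not overlap on the higher side (35.6% against 4.77%), and 1 passed the adjusted threshold. The lists were chosen with earlier results of these data known, so these shares describe the members and are no independent support. In single libraries, the median shift of the 4 lists from the DMSO mean was −0.02 to 0.03 on the log2 scale with DMSO and 0.15 to 0.19 with TCIPP, and for the ATF4 regulators −0.03 to 0.02 and 0.24 to 0.28. Transporters were the exception: their TCIPP libraries, at 0.04 to 0.18, overlapped the DMSO libraries at −0.06 to 0.13.

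**Figure D2:**
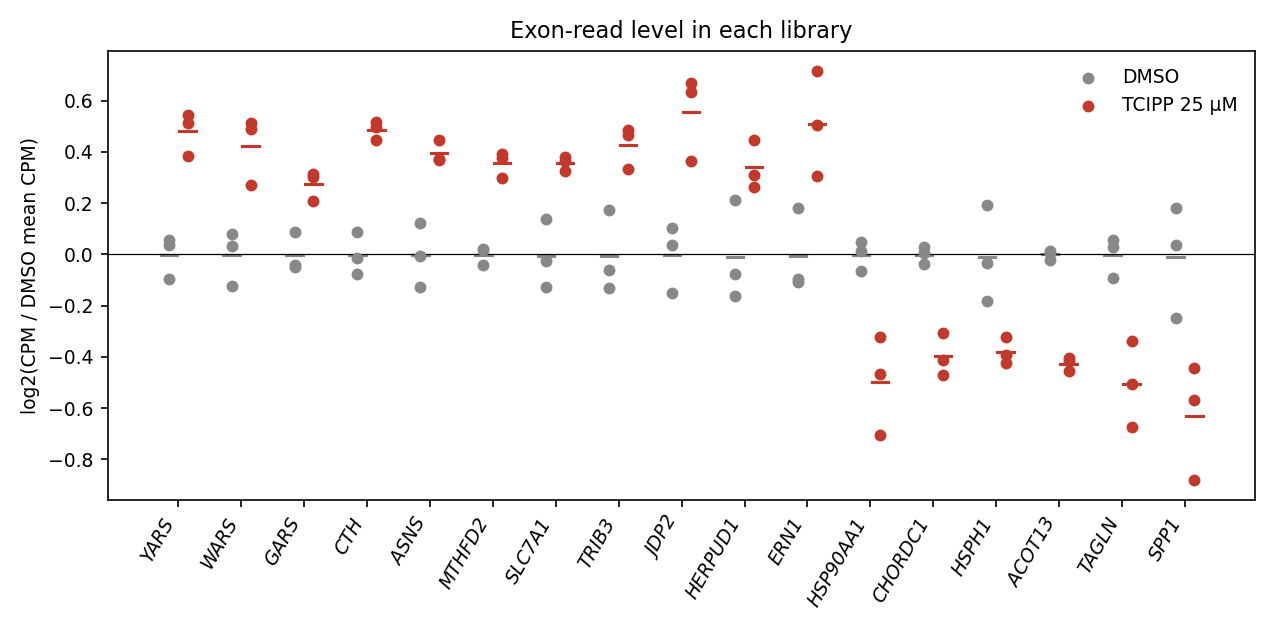
Each point is 1 library, plotted as log2 of its CPM over the DMSO mean CPM of the gene, in grey for DMSO and red for TCIPP at 25 µM, and short lines are group means of 3 libraries. The red points of YARS, CTH, ASNS and TRIB3 lie above every grey point of the same gene and those of HSP90AA1, CHORDC1 and ACOT13 below.

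The element bound by ATF4 with C/EBP partners was searched as TGATGNAA and its reverse complement TTNCATCA in the RefSeq promoter windows of GRCh38.p14, which run from 250 bases before to 50 bases after each start. The stretches below are shown because they belong to members of these lists at unadjusted p under 0.05, and because their matches lie upstream of the start; capitals mark the 8 matched bases, the flanks are in lower case, and each runs 5′ to 3′ on the strand of its gene.
ASNS, chr7:97872458-97872487, minus strand: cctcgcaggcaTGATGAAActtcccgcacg
CEBPG, chr19:33374060-33374089, plus strand: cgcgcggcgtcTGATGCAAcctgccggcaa
JDP2, chr14:75427995-75428021, plus strand: atagccggggcTGATGCAAcccgtccc
MTHFD1L, chr6:150866346-150866375, plus strand: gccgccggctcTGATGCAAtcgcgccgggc
SLC1A5, chr19:46784893-46784922, minus strand: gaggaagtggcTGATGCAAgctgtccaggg
PPP1R15B, chr1:204412017-204412064, minus strand: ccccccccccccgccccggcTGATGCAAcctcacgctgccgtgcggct
HERPUD1, chr16:56931946-56931993, plus strand: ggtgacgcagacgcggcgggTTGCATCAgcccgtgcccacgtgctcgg
GARS, chr7:30594834-30594863, plus strand: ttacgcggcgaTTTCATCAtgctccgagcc
IARS, chr9:92293698-92293730, minus strand: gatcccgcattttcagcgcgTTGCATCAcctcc
AARS, chr16:70289666-70289713, minus strand: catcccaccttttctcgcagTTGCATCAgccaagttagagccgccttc
GOT1, chr10:99430795-99430842, minus strand: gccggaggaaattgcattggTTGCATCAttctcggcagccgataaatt
The match began 68 bases before the start in ASNS, 42 in CEBPG, 16 in JDP2, 129 in MTHFD1L, 97 in SLC1A5, 227 in PPP1R15B, 176 in HERPUD1, 33 in GARS, 13 in IARS, 187 in AARS and 198 in GOT1. CEBPG, JDP2, MTHFD1L, SLC1A5 and PPP1R15B held TGATGCAA, IARS, AARS, GOT1 and HERPUD1 its reverse complement, and ASNS and GARS variants at the free base.

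A promoter entry was found for 67 of the 87 members, and 20 of them (29.9%) held a match in any window, against 4.46% of the 27305 genes in the table and 2.78% of the tested genes with an entry; of all 35116 windows, each 300 bases long, 3.62% held one. The share was 43.8% for the cytosolic synthetases (7 of 16), 31.3% for transporters (5 of 16), 23.8% for ATF4 regulators (5 of 21) and 21.4% for the synthesis enzymes (3 of 14). It was 6.9% for the unfolded protein response list and 4.55% for the heat shock list. The 20 members with a match all had a higher mean with TCIPP, 16 of them at unadjusted p under 0.05, with a median log2 difference of 0.24. Of the 47 without a match, 35 had a higher mean, 17 of them at p under 0.05, and the median was 0.09. Among all tested genes, 11.1% of the 271 with a match were higher at unadjusted p under 0.05 and 3.69% lower, against 3.04% and 2.94% of the 9484 without one. Outside the 4 lists the difference was smaller, 5.58% higher and 3.98% lower among 251 genes with a match against 2.87% and 2.94% among 9437 without. A match says only that these letters occur in the window. The 4 lists were made around the ATF4 response and chosen with earlier results of these data known. The shares of their members with a match are therefore descriptive and no independent support.

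The unfolded protein response, run by the sensors IRE1 (gene ERN1), PERK and ATF6, raises chaperones and degradation factors of the endoplasmic reticulum. In this list 11 of 31 tested members were higher at unadjusted p under 0.05 (35.5%) and 1 lower, 6 did not overlap on the higher side, and the median was 0.09. ERN1 was at 25.8, 31.3 and 25.6 CPM with DMSO and 34.1, 45.3 and 39.1 CPM with TCIPP (0.52 ± 0.108, adjusted p = 0.139). HERPUD1, a degradation factor that also stands in the ATF4 list, was at 149, 181 and 139.8 CPM against 213, 188 and 194 CPM (0.35 ± 0.0832, adjusted p = 0.238). Among the classical chaperones the third TCIPP library stood apart from the other two: HSPA5 (BiP) was at 1929, 1865 and 1449.9 CPM with TCIPP against 1501, 1616 and 1438 CPM, and HYOU1 at 395, 331 and 279 against 292, 287 and 261 CPM, so that the first and second TCIPP libraries lay above every DMSO library for both genes and the third lay inside the DMSO range. The count of 11 was 5 when the first DMSO, the third DMSO or the first TCIPP library was left out. CREB3L3, a liver transcription factor of the reticulum, was at 16.4, 16.96 and 16.2 CPM with DMSO and 14.9, 11.8 and 12.6 CPM with TCIPP (−0.32 ± 0.116).

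Cytosolic chaperones and heat shock genes lay on the other side. Of 26 tested, 4 had a higher mean with TCIPP, 0 were higher and 5 lower at unadjusted p under 0.05 (19.2% against 2.95% of all genes), and the median was −0.15. HSP90AA1 (chr14:102547075-102606036), the inducible HSP90 chaperone, was at 1504, 1590.1 and 1627 CPM with DMSO and 965, 1260.0 and 1140.3 CPM with TCIPP (−0.49 ± 0.0841, adjusted p = 0.0538). Its constitutive relative HSP90AB1 was at 2236 ± 55.4 and 2388 ± 88.1 CPM, a value of 0.09 ± 0.0654. CHORDC1, an HSP90 co-chaperone, was at 70.5, 72.5 and 73.9 CPM against 52.1, 54.3 and 58.5 CPM (−0.40 ± 0.0950, adjusted p = 0.24), and HSPH1, an HSP110 chaperone, at 201, 261 and 223 against 183, 171 and 174 CPM (−0.38 ± 0.109). These 3 genes had no overlap between the groups. HSPA1A was at 486, 542 and 321 against 294, 375 and 286 CPM, with overlap and with 27.1% of reads unique. The median shift in single libraries was −0.02 to 0.04 with DMSO and −0.24 to −0.02 with TCIPP, and the count of 5 lower was 8 without the second DMSO library and 9 without the second TCIPP library. All 8 subunits of the TRiC chaperonin had a lower mean, none at p under 0.05, as did 6380 of all 12567 genes. Libraries disagreed: the median shift of the subunits was −0.06, 0.09 and −0.15 with TCIPP, against −0.07 to 0.04 with DMSO. Their median log2 difference was −0.06, or −0.003 without the third TCIPP library.

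**Figure D3:**
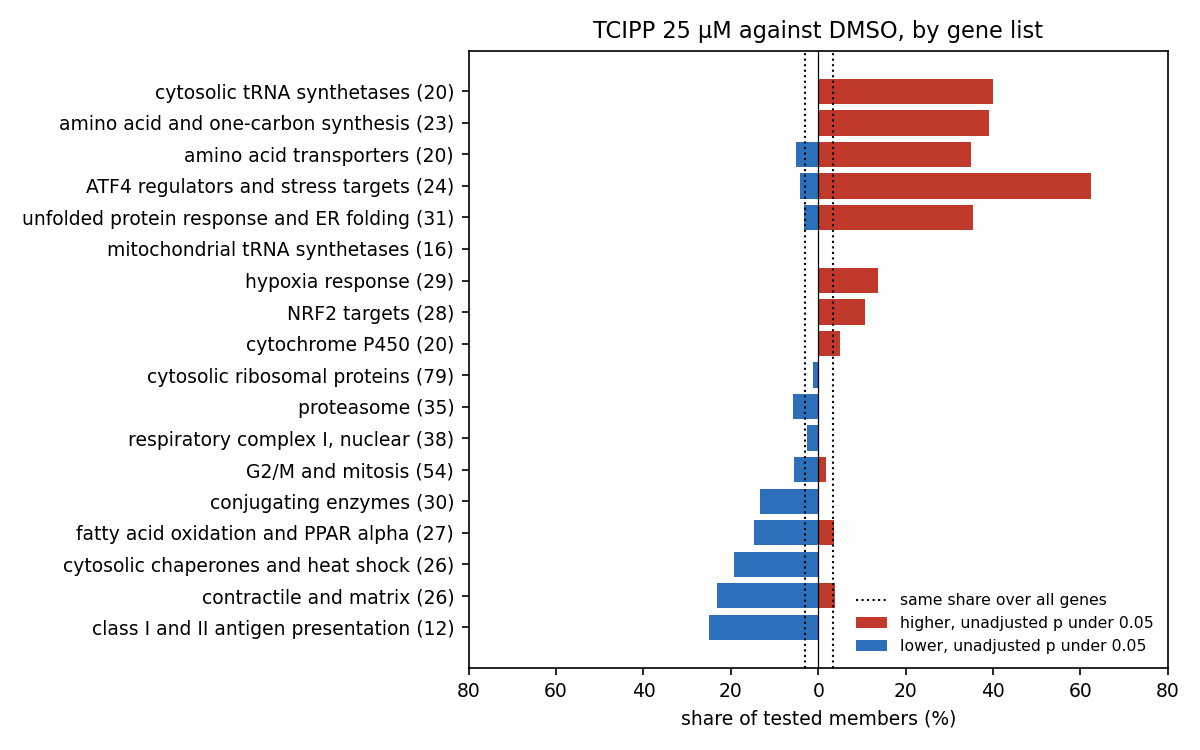
Bars give the share of tested members (%) of each gene list with an unadjusted p under 0.05 in edgeR, to the right for higher and to the left for lower with TCIPP at 25 µM than with DMSO, the number tested is in brackets, and dotted lines mark the shares over all genes (3.41% and 2.95%). The ATF4 regulators reach 62.5% on the right and the antigen presentation list 25% on the left.

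Several smaller lists had more members on the lower side than the background. In the contractile and matrix list 6 of 26 were lower and 1 higher. TAGLN, an actin-binding protein, was at 19.3, 18.9 and 17.4 CPM with DMSO and 11.6, 14.7 and 13.1 CPM with TCIPP (−0.50 ± 0.118, adjusted p = 0.224). SPP1, which encodes the secreted protein osteopontin and is also a bile duct marker, was at 1657, 1229.9 and 1498 against 1076, 795 and 987 CPM (−0.62 ± 0.135, adjusted p = 0.167), and THBS1 at 189, 189 and 167 against 146, 149 and 157 CPM. Each of the 3 was lower in every TCIPP library than in any DMSO library. Of the other bile duct markers, KRT19 was at 159.5 ± 19.7 and 145 ± 23.3 CPM, SOX9 at 232 ± 12.1 and 237 ± 11.7 CPM and EPCAM at 171 ± 19.0 and 154 ± 15.9 CPM, with CFTR at 0 in both groups; their part in the result was not tested, and in bulk RNA fewer cells of a kind and less RNA per cell cannot be told apart. In the antigen presentation list 3 of 12 were lower and 5 did not overlap on that side: NLRC5, a transactivator of MHC class I genes, was at 9.47, 9.28 and 9.36 CPM against 7.46, 5.83 and 6.98 CPM (−0.45 ± 0.156), while HLA-C and HLA-E were both at 0.01. The count of 3 was 1 without the second TCIPP library and 5 without the first. In the fatty acid oxidation list 4 of 27 were lower, led by ACOT13, a mitochondrial acyl-CoA thioesterase, at 39.3, 38.5 and 39.5 CPM with DMSO and 28.5, 29.5 and 29.3 CPM with TCIPP. Its difference of −0.43 ± 0.0733 had an adjusted p of 0.0538, and 205 of its bases are shared with C6orf62. CPT1A, the entry enzyme of mitochondrial fat oxidation, was at 0.18 ± 0.160 and overlapped. The count of 4 was 2 without the first or the third TCIPP library. Conjugating enzymes had 4 of 30 lower and 0 higher, with a median of −0.15. The glutathione transferase gene GSTA2 was at 3.58, 3.09 and 3.37 against 2.26, 1.504 and 2.00 CPM, and the glucuronidation gene UGT2B10 at 108, 107 and 112 against 76.9, 103 and 93.1 CPM. The count was 1 without the third DMSO library and 2 without the second TCIPP library.

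In the lists of xenobiotic and oxidant defence, the shares stood nearer to the background. Of 44 cytochrome P450 genes listed, 20 were tested, 1 was higher (CYP24A1, 0.52) and 0 lower. CYP1A1, the classical target of the aryl hydrocarbon receptor, was at 7.42, 4.09 and 7.81 CPM with DMSO and 10.3, 4.14 and 5.99 CPM with TCIPP, a value of 0.09 ± 0.384 whose interval ran from −0.72 to 0.90. CYP3A4 had 7, 7 and 14 reads against 5, 1 and 4, CYP2B6 had 0, 0 and 3 against 0, 0 and 0, and CYP7A1, the rate-limiting enzyme of bile acid synthesis, had 9, 10 and 11 against 6, 5 and 4, so these were not tested. NRF2 targets, which answer oxidants and electrophiles, gave 3 of 28 higher (10.7%), 0 lower and a median of 0.06. HMOX1 and NQO1 were at −0.05 ± 0.122 and −0.08 ± 0.0865. GCLM, a subunit of the enzyme that starts glutathione synthesis, was at 41.1, 47.0 and 44.6 against 48.2, 48.9 and 63.1 CPM (0.28 ± 0.123). Without the third DMSO library 0 of these genes were higher at p under 0.05. The p53 list lay above the background in both directions, with 4 of 29 higher (13.8% against 3.41%) and 3 lower (10.3% against 2.95%). CDKN1A was at −0.19 ± 0.0758, FDXR at −0.49 ± 0.122 and SESN2, which ATF4 also controls, at 0.44 ± 0.133. The count lower was 7 without the second DMSO library, 1 without the third, and 5 without the first or the third TCIPP library.

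In the lists of basic cell functions below few genes stood at unadjusted p under 0.05. Ribosomal protein genes gave 0 higher and 1 lower of 79 with a median of −0.02, S phase genes 0 and 1 of 48, proteasome genes 0 and 2 of 35, nuclear complex I genes 0 and 1 of 38, and the 13 mitochondrially encoded genes 0 in either direction. Of the proteasome genes 33 had a lower mean (median −0.09) and of the complex I genes 34 (median −0.08). Of all 12567 genes 6380 did. Median shifts of the proteasome genes were −0.11 to 0.06 with DMSO and −0.18 to −0.01 with TCIPP. For complex I genes they were −0.07 to 0.05 and −0.14 to −0.01. Single libraries thus overlapped between the groups in both lists. Their counts depended on single libraries: lower proteasome genes numbered 0 without the first or the third DMSO library, 9 without the second, and 4 and 7 without the first and the second TCIPP library, and lower complex I genes 4 without the second DMSO library, 3 without the first or the second TCIPP library and 2 without the third. Mitotic genes gave 1 higher and 3 lower of 54, and their median was −0.09, or 0.01 with 0 lower without the first TCIPP library and −0.16 with 14 lower without the third; MKI67 was at 109, 135 and 155 CPM with TCIPP against 149.6, 133 and 136 CPM. Among secreted liver proteins 1 of 54 was higher and 4 lower, with 2 lower when the first or the third DMSO library was left out and 7 lower without the second DMSO or the first TCIPP library. SERPINC1, which encodes antithrombin, was the higher one, at 57.4, 60.04 and 59.7 CPM with DMSO and 82.2, 79.5 and 71.6 CPM with TCIPP (0.39 ± 0.0757, adjusted p = 0.0969). Albumin (ALB) was at 21801 ± 3564 and 18374 ± 2982 CPM, a value of −0.25 ± 0.138, and AFP, the fetal serum protein, at −0.28 ± 0.105. HMGCS1, an enzyme of cholesterol synthesis, was at −0.12 ± 0.0757 and the metallothionein MT1X at −0.42 ± 0.256.

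The largest differences without overlap at p under 0.01 were mostly in genes of low level. C5AR1, the receptor for complement fragment C5a, was at 1.02, 1.36 and 0.982 CPM with DMSO and 3.17, 4.32 and 2.66 CPM with TCIPP, a log2 difference of 1.59 ± 0.311 with an adjusted p of 0.0969. SLC22A15, an organic cation transporter family member, was at 2.94, 1.86 and 2.20 against 3.73, 5.27 and 5.76 CPM (1.08 ± 0.237). SLC51B, a subunit of the bile acid exporter of the basolateral membrane, was at 8.83, 7.43 and 9.40 against 14.8, 11.7 and 14.97 CPM (0.69 ± 0.184), and NAGS, which makes the activator of the urea cycle, at 4.86, 6.68 and 6.08 against 8.03, 9.59 and 10.9 CPM (0.68 ± 0.161). AKNA, EXD3, QRICH2, BSN and AC141928.1 had values from 0.57 to 0.80. On the lower side RGS2, a regulator of G protein signalling, was at 2.81, 3.09 and 3.13 against 1.70, 1.69 and 0.887 CPM (−1.12 ± 0.358), and HSF4, a heat shock factor, at 2.56, 3.59 and 2.85 against 1.70, 1.32 and 1.33 CPM (−1.02 ± 0.272). RP11-30P6.6, TSPAN15, LINC00941, CLDN19, LCA5 and C6orf132 had values from −1.13 to −0.57, and PLA2G2A, a secreted phospholipase, was at 21.4, 18.6 and 18.3 against 15.1, 12.6 and 11.2 CPM (−0.57 ± 0.114). SGK1, a kinase of ion transport and stress signalling with one of the lowest p on that side, was at 102, 76.0 and 99.0 against 75.8, 58.1 and 60.2 CPM (−0.51 ± 0.111). None of these genes passed the adjusted threshold.

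Intron reads, which come largely from unspliced transcripts, were counted separately by the authors and gave a second readout of the same RNA samples. On 10256 genes 0 passed the adjusted threshold (0% by edgeR), with 228 higher (2.22%) and 263 lower (2.56%) at unadjusted p under 0.05. Of 94 genes higher on exon reads at p under 0.01 and tested on both, 80 (85.1%) had a higher intron mean as well, and of 61 lower genes 9 (14.8%) did, against 49.6% of all 8998. These are the same cultures and libraries, and the readout is no replicate. YARS had an intron difference of 0.56 ± 0.186, ASNS 0.44 ± 0.140 and SLC7A1 0.57 ± 0.228, beside their exon differences of 0.48, 0.40 and 0.36, while CTH and MTHFD2 had 0.14 ± 0.234 and 0.15 ± 0.276. CARS was larger on intron reads (0.78 ± 0.227) than on exon reads (0.22 ± 0.0766). For the cytosolic synthetases 17 of 20 had a higher intron mean, with 7 at unadjusted p under 0.05 and a median of 0.21. For the 4 amino acid response lists together the figures were 50 of 72, with 14 higher and 1 lower and a median of 0.14. The heat shock list differed between the readouts: 11 of 20 had a higher intron mean with a median of 0.03, and HSP90AA1 was at 0.42 ± 0.275 on intron reads against −0.49 ± 0.0841 on exon reads.

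**Figure D4:**
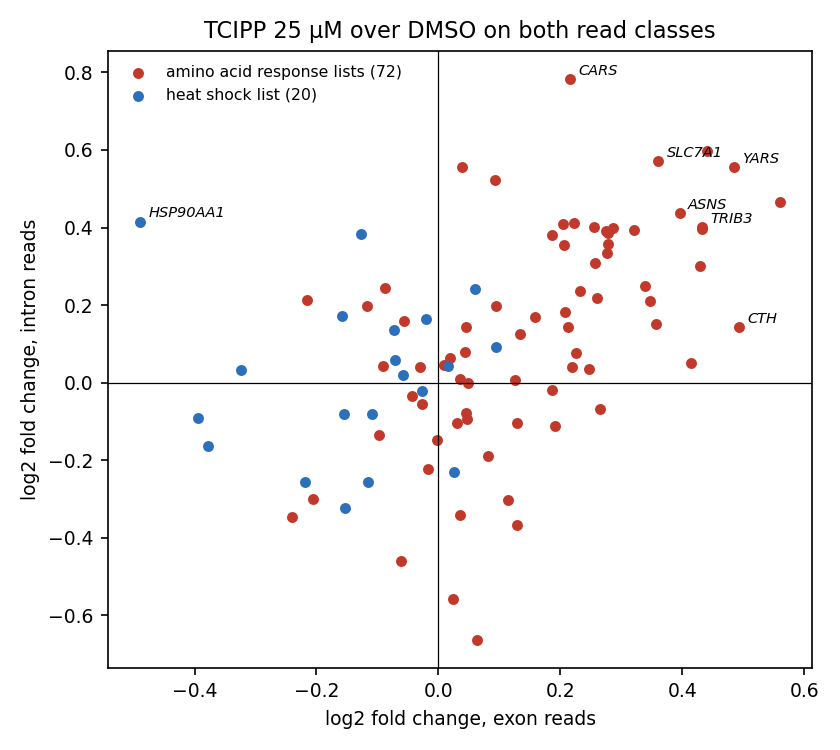
Each point is a gene tested on both read classes, with the log2 fold change of TCIPP at 25 µM over DMSO on exon reads across and on intron reads up, for the 72 amino acid response genes (red) and 20 heat shock genes (blue). YARS, ASNS and SLC7A1 lie in the upper right, and HSP90AA1 lies in the upper left.

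How this exposure differed from the lower concentration was tested directly between the treated groups. Against TCIPP at 2.5 µM, 0 genes passed (0%, edgeR), with 632 higher (5.03%) and 726 lower (5.78%) at unadjusted p under 0.05. DESeq2 called 72. Same-numbered libraries of these groups deviated together and were taken as paired, though the labels do not say what a shared number means. With the replicate number as a block edgeR called 194 genes higher (1.54%) and 290 lower (2.31%). Among the 4 amino acid response lists 20 of 87 were called higher and 2 lower in the blocked fit. YARS was at 163 ± 9.56 CPM with 25 µM and 129 ± 7.06 CPM with 2.5 µM, a log2 difference of 0.34 with an adjusted p of 0.191 and of 0.00578 with the block. CTH was at 31.9 ± 0.768 and 23.4 ± 1.71 CPM (0.46 ± 0.0829, blocked adjusted p = 0.00352), and TRIB3 at 211 ± 12.04 and 172 ± 4.99 CPM (0.30 ± 0.0795, blocked adjusted p = 0.0313). ATF4 mRNA was also called higher in the blocked fit, at 602 ± 56.6 and 519 ± 45.9 CPM (0.21 ± 0.0817, blocked adjusted p = 0.024). For ERN1, SLC7A5 and CEBPG no difference between the concentrations was detected, with values of 0.02 ± 0.105, 0.01 ± 0.0725 and 0.08 ± 0.0712.

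In other gene groups of the same contrast the median lay nearer to DMSO at 25 µM than at 2.5 µM. Hypoxia genes had a median log2 difference from DMSO of 0.06 at 25 µM and 0.34 at 2.5 µM, and 13 of 29 were lower and 0 higher at 25 than at 2.5 µM at unadjusted p under 0.05 (12 called lower with the block). EGLN3, CA9 and NDRG1, named here after their values were seen, were lower by 0.72, 0.56 and 0.40 on the log2 scale. NRF2 targets ran the other way, with medians of 0.06 and −0.16 from DMSO, 12 of 28 higher and 1 lower (9 and 1 with the block). HMOX1 was the lower one, at 30.8 ± 0.992 CPM with 25 µM and 46.3 ± 7.98 CPM with 2.5 µM, and GCLM was at 53.4 ± 8.41 and 38.0 ± 6.25 CPM. The mitochondrially encoded genes had a higher mean in 13 of 13, 9 of them at p under 0.05 (4 with the block). Contractile and matrix genes gave 13 of 26 lower (11 with the block), among them TAGLN (−0.49 ± 0.119, blocked adjusted p = 0.0163). TAGLN did not follow the pattern of its list. At 25 µM it was lower than DMSO by a similar amount (−0.51, edgeR's blocked adjusted p = 0.0554). This difference from DMSO was called neither with the block nor without it, and DMSO libraries were not taken as paired with TCIPP libraries. Glycolytic genes gave 12 of 21 lower at unadjusted p under 0.05.

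TCEP at 25 µM matches TCIPP in concentration and time, and this was the 1 pair of compounds compared. By edgeR 5 genes differed (0.0398%), AFF1 and CYB5A higher and EDN1, MATN3 and VCAN lower with TCIPP, with 1155 higher (9.19%) and 1123 lower (8.94%) at unadjusted p under 0.05. With the replicate block 539 were called higher (4.29%) and 561 lower (4.46%), and DESeq2 without a block called 334. The count of 5 was 211 without the second TCIPP library and 0 without any other single library of the 6. In the 4 amino acid response lists 37 of 87 were higher and 3 lower at unadjusted p under 0.05, with 27 called higher and 1 lower in the blocked fit. YARS was at 123 ± 6.55 CPM with TCEP (log2 difference 0.41, adjusted p = 0.0527, blocked 0.00119). TRIB3 was at 156 ± 10.6 CPM (0.44 ± 0.0794, adjusted p = 0.0544, blocked 0.00229), SLC7A1 at 135 ± 6.47 CPM (0.31 ± 0.0722, blocked 0.00731) and GARS at 265 ± 4.06 CPM (0.26 ± 0.0645, blocked 0.00511). HSP90AA1 was lower with TCIPP, at 1122 ± 148 against 1499.9 ± 29.0 CPM (−0.42 ± 0.0840, adjusted p = 0.0753, blocked 0.0015), as were ACOT13 (−0.37 ± 0.0732, blocked 0.00437) and TAGLN (−0.66 ± 0.117, adjusted p = 0.0527, blocked 0.00168). For some genes no difference between the compounds was detected: the interval of the difference was −0.13 to 0.32 for ERN1, −0.22 to 0.18 for CHORDC1 and −0.09 to 0.21 for CEBPG. Of the ribosomal protein genes 39 of 79 were lower with TCIPP than with TCEP at unadjusted p under 0.05 (28 with the block). Their median log2 difference from DMSO was −0.02 with TCIPP at 25 µM, 0.18 with TCEP and 0.12 with TCIPP at 2.5 µM. All 79 also had a lower mean with TCIPP at 25 than at 2.5 µM, 14 at unadjusted p under 0.05. Of NRF2 targets 14 of 28 were higher with TCIPP than with TCEP and 1 lower (12 and 1 with the block). Their median log2 difference from DMSO was 0.06 with TCIPP at 25 µM and −0.13 with TCEP at 25 µM.

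TCEP at 250 µM differs in concentration, so its values are set beside these with no comparison; every difference from DMSO uses the same 3 DMSO libraries. For TCIPP at 25 µM, TCEP at 250 µM, TCIPP at 2.5 µM and TCEP at 25 µM in that order, the median log2 differences were 0.27, 0.23, 0.02 and 0.02 for the ATF4 regulators, 0.11, 0.11, 0.01 and 0.03 for the synthetases, 0.10, 0.12, 0.03 and −0.01 for the synthesis enzymes, and 0.16, 0.14, 0.03 and −0.09 for the transporters. For heat shock genes they were −0.15, −0.06, −0.18 and −0.07. YARS was at 148 ± 6.20 CPM with TCEP at 250 µM, CTH at 30.3 ± 1.17, ASNS at 142 ± 7.54, TRIB3 at 197 ± 8.59 and HSP90AA1 at 1312 ± 81.6 CPM.

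**Figure D5:**
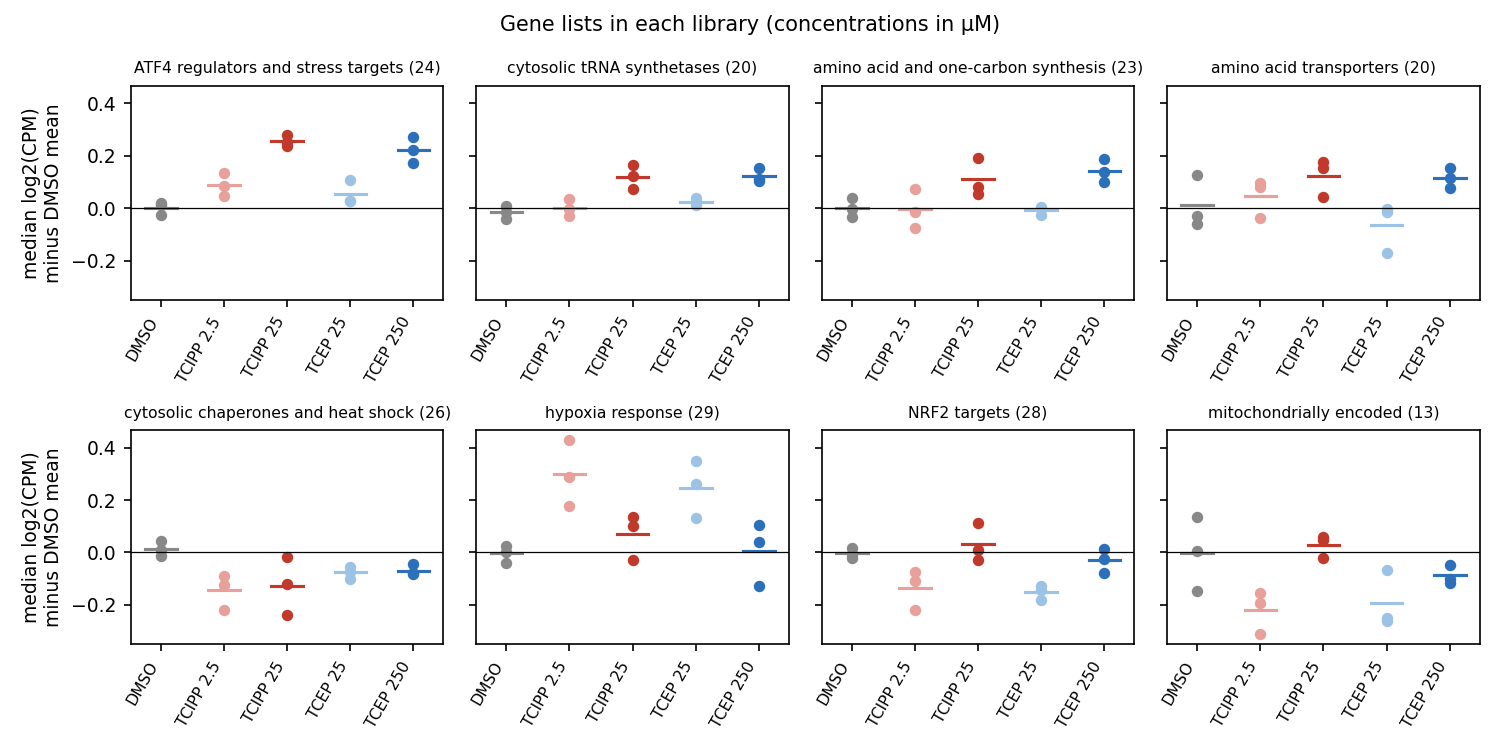
Each point is 1 library of the 15, plotted as the median over a list's tested genes of log2(CPM) minus the DMSO mean, with concentrations in µM and short lines for means of 3 libraries. For the ATF4 regulators the TCIPP 25 µM libraries lie at 0.24 to 0.28 and the DMSO libraries at −0.03 to 0.02. In the hypoxia and mitochondrially encoded lists the TCIPP 25 µM points lie nearer to DMSO than the TCIPP 2.5 µM points do. In the NRF2 list the points lie at 0.11, 0.01 and −0.03 with 25 µM and at −0.07, −0.22 and −0.11 with 2.5 µM.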

How the data were processed

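Poly-A selected, stranded libraries of HepG2 RNA were sequenced as paired-end reads, and each replicate had its own seeding, exposure and RNA extraction, per the labels' protocols. Per the series' design text, the authors mapped and counted in CLC Genomics Workbench, for which neither a version nor the use of strand was found in the labels or headers. Per the submitters' processing notes the reads were placed on hg19 (GRCh37). The deposited tables hold whole-number read counts per gene (total and unique gene and exon reads, and intron reads), per the file headers. The authors' deposited RPKM values, per the file headers, served only to compare levels between genes. Gene starts were moved by 1 base to a 1-based scale. Of 57773 genes listed, 20986 had an exon length of 0, 27 names turned into dates were restored, and 96.1% of identifiers matched the name table.

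Total exon reads of all 15 libraries were fitted with edgeR 4.0.16 (R 4.3.3; quasi-likelihood test, TMM, filterByExpr, Benjamini-Hochberg), with group as the only term. SE is the absolute log2 fold change over the square root of F. Intervals are at 95%. Libraries held 5.35 to 21.4 M exon reads in the groups compared. Floors cover counting error only. The script was tested on simulated data. Alternatives were other scalings and read classes, no low-count filter, only the compared libraries, a replicate block, single libraries left out, limma-voom (limma 3.58.1) and DESeq2 1.42.0.

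Same-numbered libraries deviated together against TCIPP at 2.5 µM (r = 0.286, 0.297 and 0.277 across genes) and TCEP at 25 µM (0.202, 0.272 and 0.177), which was taken as pairing there. This pairing was read from these same data, since the labels do not say what a shared number means.

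The members and the 37 gene lists were chosen with earlier results of these data known. Named genes were all called genes, the 12 of smallest p and the 10 of largest change (p under 0.01, no overlap) per direction at a mean of at least 1 CPM and a unique share of at least 50%, up to 6 members per list, and a fixed set looked up. Of 233 such genes, 52 overlap another gene with reads. Some genes are not reported here. Promoter sequences are from RefSeq (GRCh38.p14).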

Additional observations from a re-analysis of the deposited data

Results flagged for a closer look

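Between TCIPP and TCEP, both at 25 µM for 72 h, 5 genes differed by edgeR's test of the difference itself (adjusted p under 0.05). AFF1, a transcription elongation scaffold, was at 95.3 ± 8.29 CPM with TCIPP and 69.9 ± 2.10 CPM with TCEP, a log2 difference of 0.45 (SE 0.0723, adjusted p = 0.0419), and at 87.1 ± 4.26 CPM with DMSO. CYB5A, which encodes cytochrome b5, was at 90.4 ± 6.97 and 68.3 ± 1.35 CPM, a difference of 0.41 (SE 0.0692, adjusted p = 0.0462), with DMSO at 72.9 ± 3.13 CPM. EDN1, the gene of endothelin-1, was at 19.5 ± 2.33 and 31.3 ± 2.91 CPM, a difference of −0.69 (SE 0.117, adjusted p = 0.0462), with DMSO at 24.6 ± 1.95 CPM. MATN3, a matrix protein with 66.1% of its reads unique, was at 390.3 ± 9.67 and 591 ± 34.6 CPM, a difference of −0.60 (SE 0.0856, adjusted p = 0.0283), with DMSO at 406 ± 55.5 CPM. VCAN, which encodes the proteoglycan versican, was at 16.3 ± 3.02 and 28.5 ± 1.63 CPM, a difference of −0.82 (SE 0.132, adjusted p = 0.0419), with DMSO at 17.2 ± 1.81 CPM, and 31.8% of its reads were unique. With the replicate number as a block all 5 were called, with adjusted p from 9.17e-05 to 0.00141. None of the 5 was called when any 1 library other than the second TCIPP library was left out. In edgeR's blocked fit all 5 also differed, in the same directions, between TCIPP at 25 µM and its lower concentration. Adjusted p there was 0.0295 for AFF1, 0.0101 for CYB5A, 0.000117 for EDN1, 0.000145 for MATN3 and 0.00262 for VCAN. Without the block none was called between the TCIPP concentrations. The cause of these differences was not tested.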

How the results depend on the processing

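Against DMSO the count of 1 was 0 with library totals in place of TMM and with only the 6 compared libraries fitted, 80 without a low-count filter, 47 with the replicate number as a block (35 higher; same-numbered libraries shared only a number, with r = 0.029, 0.016 and 0.075) and 34 by DESeq2. Leaving out single libraries gave 0 to 5 calls, 5 without the second DMSO library (TRIB3, HERPUD1, YARS, SGK1 and SLC7A1), 3 without the third TCIPP library (YARS, EIF1 and ATRX) and 1 without the second, HSP90AA1. Against TCIPP at 2.5 µM the count of 0 (1358 at unadjusted p under 0.05) was 345 without the filter, 484 with the replicate block, 947 with the block in the 12 treated libraries alone and 72 by DESeq2. Against TCEP at 25 µM the count of 5 was 2 with library totals, 756 without the filter, 13 on gene reads, 0 with the compared libraries alone, 1100 with the block, 2089 with the block in the 12 treated libraries, 334 by DESeq2 and 0 to 211 with single libraries left out. On intron reads the count of 0 was 24 without the filter and 1 with the block. The block in the treated libraries was added after the data were seen. The causes were not tested.

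Of 1679 values of 112 named genes under the alternatives, 0 changed sign after a call, 1585 kept their side of the threshold, 88 passed it and 6, all of YARS, no longer did; its log2 fold change ranged from 0.44 to 0.53 and its adjusted p from 2.06e-06 to 0.648. The median of the 4 amino acid response lists stayed between 0.15 and 0.19, with 31 to 44 members higher at unadjusted p under 0.05. Of 363 list medians, 348 moved by less than the spread between replicates and 15 by more.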
